A study of Mus musculus with 24 samples.

Results

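MCK-cre Rb-flox myotubes were compared with wild-type dividing myoblasts, to ask which genes of differentiated muscle cells that had lost Rb stood above, below or close to their level in normally dividing precursors. The comparison used 6 of the 12 mouse primary muscle cell cultures of the study and 12 of its 24 arrays, chosen by genotype and cell state from the labels: Rb-flox cultures J, K and L against wild-type myoblast cultures A, B and C. RNA of each culture was hybridised to 1 Affymetrix MOE430A and 1 MOE430B array, which together cover most known mouse genes. The remaining cultures were wild-type myotubes (G, H and I), whose levels are given beside a few genes, and Rb-null myoblasts, which enter only the estimate of the spread.

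The Rb-flox myotubes carried floxed Rb alleles and a Cre recombinase driven by the muscle creatine kinase (MCK) promoter, which becomes active once muscle cells differentiate, so the precursors of these myotubes still had Rb. They were harvested on day 6 in DMEM with 5% horse serum and came from 3 independent cell lines. The wild-type myoblasts were biological triplicates grown in Hams F-10 with 20% fetal bovine serum and bFGF, which keeps precursors dividing. Cell state, medium, serum and genotype therefore differ together between the groups and cannot be told apart. The labels give desmin and MyoD staining as the check of purity and name fibroblasts as the contaminating cell type. In bulk RNA, fewer cells of a type and less RNA per cell cannot be told apart either.

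Rb is the founding member of the pocket proteins, which bind E2F transcription factors and hold their target genes silent in cells that leave the cell cycle. E2F targets include the genes for cyclin E, the replicative helicase and the DNA polymerases, while genes of mitosis are switched on later in the cycle, mostly through the MuvB complex with B-MYB and FOXM1, which reads a short promoter element called the CHR. In differentiating muscle, exit from the cycle is tied to the myogenic factors, which bind E-boxes in muscle promoters and are held in check in precursors by the Id proteins.

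Signals are the authors' deposited intensities, 1 value per probe set and array, and were compared as log2(signal + offset), with 130 (MOE430A) or 206 (MOE430B) as the offset. Changes of genes with signals near the offset are understated. Each gene was compared within 1 probe set, so signals of different genes are not comparable. Where the signals of a list are summed, the brightest probe sets weigh most. A gene was called higher or lower at a limma adjusted p under 0.05 over all 14331 genes tested. A gene was classed as close when it was not called and the 95% interval of its log2 change lay between -1 and 1, that is within 2-fold either way. All other genes were undecided. A log2 change is Rb-flox myotube minus wild-type myoblast, and the value after ± is the standard error (SE) of the fit, with n = 3 cultures per group. Every adjusted p printed beside one is limma's.

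Replicates correlated across genes at r = 0.851 to 0.909 among Rb-flox cultures and 0.884 to 0.959 among myoblast cultures, against 0.756 to 0.829 between the groups. Cultures J, K, L and B shared the last scan day, while A and C were scanned on the first. With scan day as a block, the estimate therefore rests on culture B as the myoblast side, and the blocked values are given beside the results. The 18S control signal moved with the scan day: on MOE430A it was 6260, 13662 and 8364 in J, K and L, against 524 in A, 8743 in B and 247 in C. The array median was 717 ± 2.24 in Rb-flox myotubes and 628 ± 75.9 in myoblasts on MOE430A (SD, n = 3 each, exact permutation p = 0.1, the smallest that 3 against 3 allows, and 0.267 adjusted over 8 quality measures). The part of these differences in the results was not tested.

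Rb1, the gene targeted by the deletion, was examined first, to check the labels. It read 685, 802 and 589.8 in Rb-flox cultures J, K and L, 3664, 3265 and 3314 in wild-type myotube cultures G, H and I, and 2879, 1439.7 and 1579 in myoblast cultures A, B and C. All 3 Rb-flox cultures lay below every other culture of these groups, and the log2 change against myoblasts was -1.29 ± 0.30 (adjusted p = 0.011). The call ended without culture A, and with the scan day block the change was -0.94 (adjusted p = 0.188). Where the probe set lies relative to the deleted exons was not determined here.

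Of the 14331 genes, 1383 (9.65%) were higher and 1310 (9.14%) lower in Rb-flox myotubes than in dividing myoblasts, 833 and 751 of them at least 2-fold. Another 5731 (40%) were close to the myoblast level, and 5907 were undecided. In 2916 of the 14331 genes every Rb-flox culture lay above every myoblast culture, and in 2246 every one lay below. Such separation was therefore common over the array. The median log2 change of all genes was 0.16. These shares are the background for every list below: a list with about 1 in 10 members higher and 1 in 10 lower does not stand apart from the array as a whole. Sarcomere, calcium release, muscle energy, sterol synthesis and MHC class I genes had larger shares of higher members. Mitotic, ribosome biogenesis and Id genes had larger shares of lower members, and genes of replication licensing, nucleotide supply and DNA repair had larger shares of close members under the 2-fold interval. With a 1.5-fold interval those shares of close members did not stand apart from that of all genes.

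**Figure D1:**
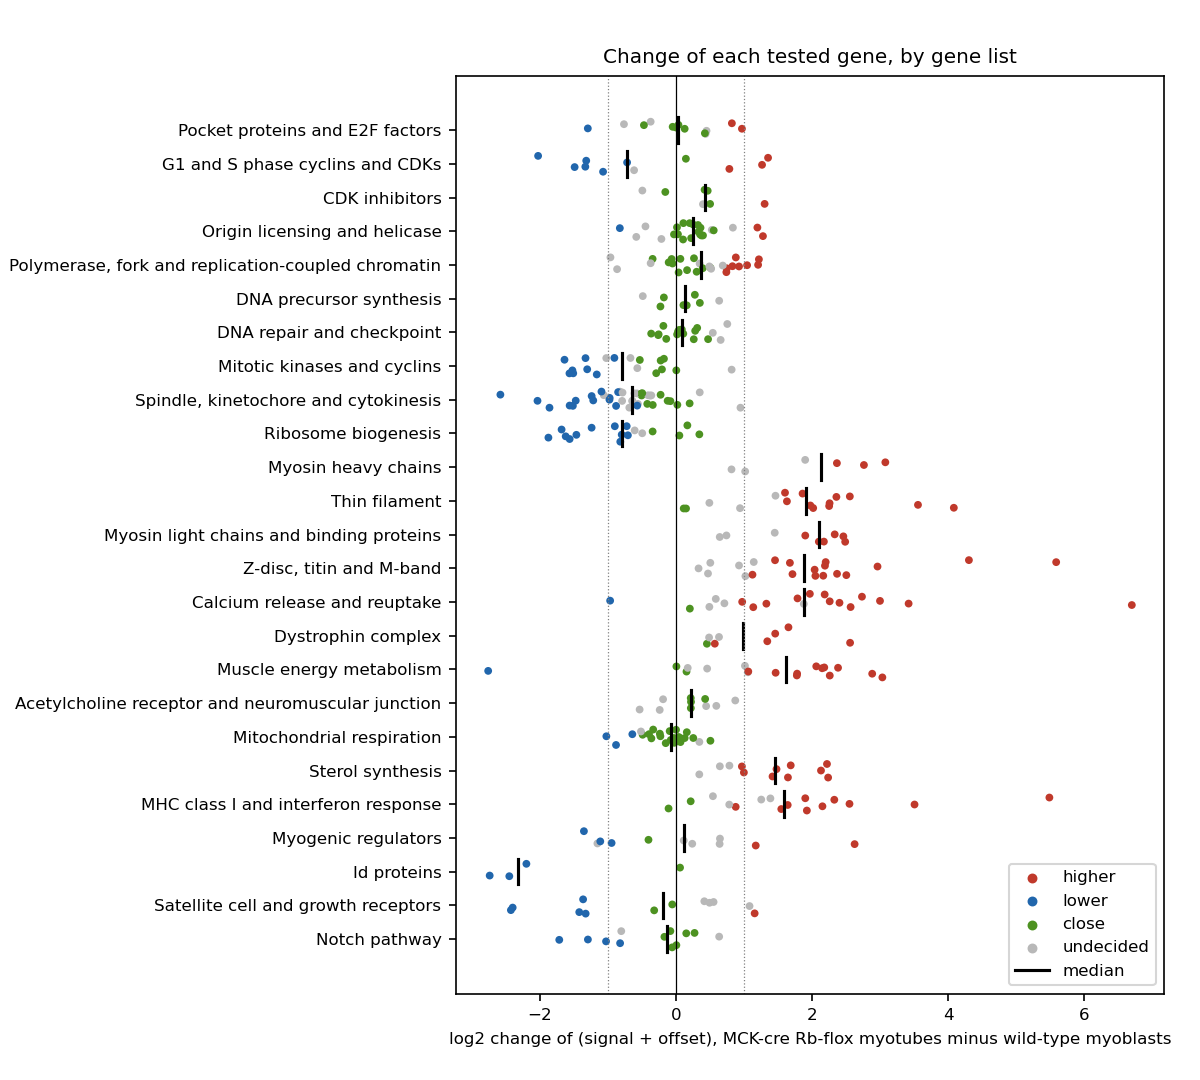
Log2 change of each tested gene (Rb-flox myotubes minus wild-type myoblasts, horizontal axis), 1 row per gene list, coloured as higher, lower, close or undecided, with a black bar at the list's median and dotted lines at -1 and 1. The sarcomere, calcium and energy rows lie mostly right of 0, the mitotic, ribosome biogenesis and Id rows mostly left, and the licensing, repair and mitochondrial rows around 0.

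The G1 and S phase cyclins and kinases split into those that exceeded the dividing level and those that stayed below it. Most pocket protein and E2F genes were close or undecided. Of 13 pocket protein and E2F genes 2 were higher, 1 lower (Rb1 itself) and 6 close, with a median log2 change of 0.04. Of 11 G1 and S phase cyclins and kinases 3 were higher and 6 lower (median -0.72), against 2 and 3 with the block, and 1 was higher without J. The higher ones were both cyclins E and their kinase Cdk2, and the lower ones were the 3 D cyclins with Cdk4, Cdk6 and Cks1b.

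E2f1 encodes the activator E2F that Rb binds. Its signal was 2764, 2953 and 3083 in J, K and L, against 1529, 1346 and 1430.2 in A, B and C, so every Rb-flox culture lay above every myoblast culture. The log2 change was 0.97 ± 0.21 (adjusted p = 0.00773), and with the scan day block it was 1.05 (adjusted p = 0.0396). Wild-type myotubes averaged 269.7. A further E2f1 probe set gave 0.59. E2f6, a repressor E2F that acts without Rb, was also called higher (0.82 ± 0.26, adjusted p = 0.0398), a call that ended with the block (1.03, adjusted p = 0.101). The repressors E2f7 (0.04, interval -0.45 to 0.52) and E2f8 (0.00, interval -0.64 to 0.64) and the pocket protein partner E2f4 (-0.05, interval -0.46 to 0.36) were close. Among the other pocket proteins Rbl2 was close (0.13), and Rbl1, itself an E2F target, was undecided at 0.45 with an interval of -0.11 to 1.01. E2f6 (without J, K, L, B or C) lost its call with 1 culture left out.

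Cyclin E2 (Ccne2), which drives entry into S phase with Cdk2, had signals of 1750.3, 1651 and 2044 in J, K and L, against 560, 645 and 687 in A, B and C. The groups were well apart, with a log2 change of 1.35 ± 0.24 (adjusted p = 0.00267) that held in all 6 fits with 1 culture left out and with the block, where it was 1.32 (adjusted p = 0.0277). Cyclin E1 (Ccne1) read 7111, 5059 and 6644 in J, K and L, against 1769, 3357 and 2642 in A, B and C. It was higher by 1.26 ± 0.32 (adjusted p = 0.0153), but the call ended without J or A and with the block (0.86, adjusted p = 0.265). Cdk2 was higher by 0.78 ± 0.22 (adjusted p = 0.0263), a call that ended without J, L, B or C.

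Cyclin D1 (Ccnd1) responds to growth factors and pairs with Cdk4 and Cdk6 to phosphorylate Rb. Its signal was 2881, 5302 and 4470 in J, K and L, against 16482, 20479 and 14667 in A, B and C. Every Rb-flox culture was below every myoblast culture. The log2 change was -2.02 ± 0.36 (adjusted p = 0.00263), and the 2 other Ccnd1 probe sets gave -3.29 and -2.68. Cdk4 (-1.07 ± 0.15, adjusted p = 0.000794) and Cdk6 (-1.32 ± 0.29, adjusted p = 0.00758) were lower as well. The Cdk6 call ended with the fluidics protocol as a block (-0.74, adjusted p = 0.25) and without the filter on low signal, where another probe set is used (-0.35, adjusted p = 0.578). Cks1b, a small subunit of cyclin-dependent kinases, was lower, with a log2 change of -1.49 ± 0.24 (adjusted p = 0.00147). The calls of Ccnd1, Cdk4, Cdk6 and Cks1b held in all 6 fits with 1 culture left out. Ccnd2 (-1.33) lost its call without K, and Ccnd3 (-0.72) without K, A or C, and both with the block. Cyclin A2 (Ccna2), which acts in S phase and G2, was not called (-0.61 ± 0.21, adjusted p = 0.0611). Cdk6 was not called under the scan day block.

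Of 7 CDK inhibitors 1 was higher and 4 were close, 1 without L or C and 0 with the block. Cdkn1a (p21), which blocks cyclin-dependent kinases as myoblasts leave the cycle, had signals of 55109.7, 64158 and 62933 in J, K and L, against 23647, 27089 and 22933 in A, B and C. The groups did not overlap, and the log2 change of 1.30 ± 0.21 (adjusted p = 0.00171) stayed called with the block (1.16, adjusted p = 0.0283). Wild-type myotubes averaged 89465. Cdkn2a, the Ink4a/Arf locus that E2F1 activates, was close at 0.42 (interval -0.10 to 0.94).

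Most origin licensing genes of the Rb-deleted myotubes were close to the level of dividing cells. Polymerase and fork genes had a larger share of higher members than all genes. Of 23 origin licensing and helicase genes 15 were close, 2 were higher and 1 was lower (median 0.25, and 0.18 with the block). Of 26 polymerase, fork and replication-coupled chromatin genes 8 were higher, 0 lower and 11 close (median 0.37). That share of close genes was near the 40% of all genes. With the block 3 of the 26 were higher, against 555 of all 14331 genes. None of the 8 precursor synthesis or 17 repair and checkpoint genes was called: 6 and 14 of them were close, with medians of 0.13 and 0.09. The close counts depend on precision: for the licensing, polymerase, precursor and repair lists they were 11, 7, 3 and 7 with the block, and 2, 1, 0 and 1 with an interval of 1.5-fold in place of 2-fold. Over all 14331 genes 3977 were close with the block and 1104 with the 1.5-fold interval. At 1.5-fold these lists therefore did not stand apart from all genes. With 1 culture left out their close counts were 12 to 13, 6 to 10 (fewest without C), 3 to 5 (fewest without L or A) and 9 to 12 (fewest without C). At an unadjusted limma p under 0.05, 1 precursor gene and 3 repair genes were higher and 0 and 0 lower, and 1 of the polymerase and fork genes was lower.

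The helicase is a ring of 6 Mcm subunits that is loaded on origins before S phase. Mcm2 read 8907, 9684 and 9552 in J, K and L, against 4314, 3605 and 4171 in A, B and C. Every Rb-flox culture lay above every myoblast culture, and the change of 1.20 ± 0.15 (adjusted p = 0.000397) held with any 1 culture left out and with the block (1.35, adjusted p = 0.00366). Wild-type myotubes averaged 523. Mcm3 read 4021, 5298 and 4085 in J, K and L, against 1695, 1450 and 2179.6 in A, B and C, and was higher by 1.28 ± 0.24 (adjusted p = 0.0033). Other Mcm3 probe sets gave smaller changes of 0.46 to 0.80.

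Mcm6 read 4218, 8863 and 4924 in J, K and L, against 3903, 4999.7 and 5872 in A, B and C. The groups overlapped, with K the highest of all 6 cultures, and the change of 0.22 (interval -0.32 to 0.76) put Mcm6 among the close genes. Wild-type myotubes averaged only 54.3. Mcm4 (0.25), Mcm5 (0.55) and Mcm7 (0.36) were close too, as were the loading factor Cdt1 (0.35) and its inhibitor geminin, Gmnn (0.10). Dbf4, the activating subunit of the Cdc7 kinase that fires origins, was the lower member (-0.82 ± 0.22, adjusted p = 0.0228), a call that ended without K, A or C and with the block (-0.64, adjusted p = 0.205). Cdc7 itself was close (0.33).

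**Figure D2:**
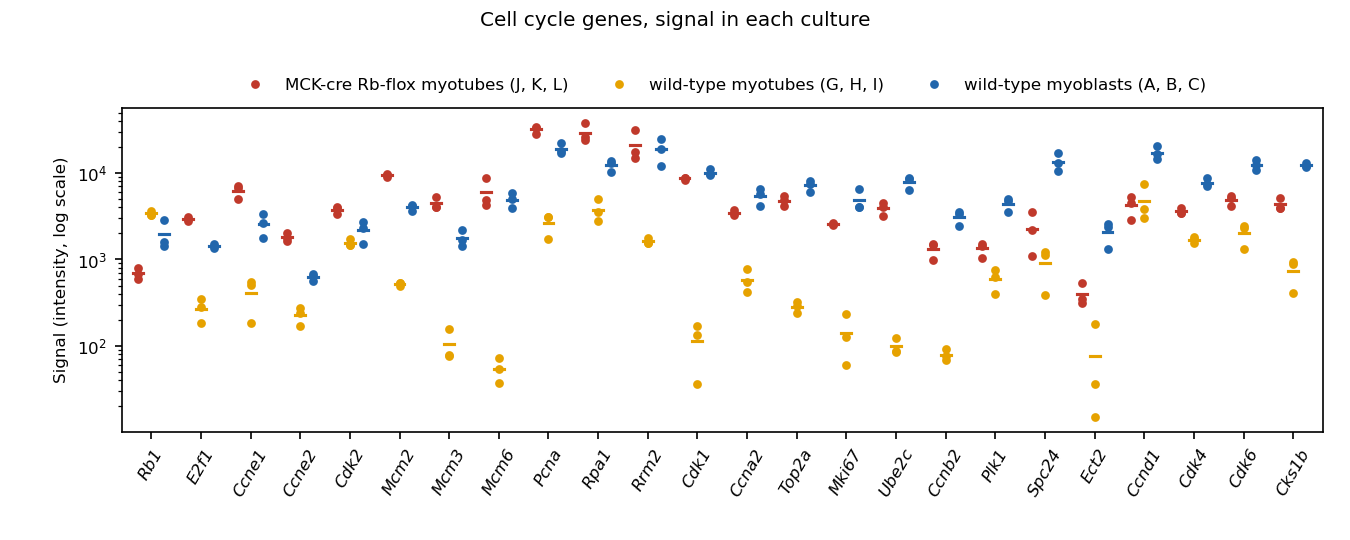
Signal of cell-cycle genes in each culture on a log axis, with Rb-flox myotubes, wild-type myotubes and wild-type myoblasts as separate points. E2f1, Ccne2 and Mcm2 of the Rb-flox cultures lie above the myoblasts, Mcm6 lies among them, Cdk1 lies just below them, and Plk1, Spc24 and Ccnd1 lie below.

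At the fork, Rpa1, the large subunit of the protein that coats single-stranded DNA, read 26272, 38238 and 23838 in J, K and L, against 10375, 13664 and 13174 in A, B and C. The groups did not overlap and the change was 1.22 ± 0.24 (adjusted p = 0.00469). The sliding clamp Pcna was higher by 0.75 ± 0.22 (adjusted p = 0.0292), a call that ended without K, L, A or B. Prim1, the catalytic subunit of primase (1.05 ± 0.18, adjusted p = 0.00235), Asf1b, which hands new histones to the fork (1.21 ± 0.18, adjusted p = 0.00106), and Dnmt1, which copies DNA methylation to the daughter strand (0.83 ± 0.15, adjusted p = 0.00336), kept their calls with any 1 culture left out and with the block. Lig1 (0.93), Rpa2 (0.74) and Chaf1b (0.88) completed the 8 higher genes. Each lost its call with the block, and with 1 culture left out: Lig1 without K, A or B, Rpa2 without J, L, A or C, and Chaf1b without K, L, A or C. Leaving out 1 culture gave 4 to 7 higher genes, fewest without A. Rpa1 and Pcna were not called under the scan day block.

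Among precursor synthesis genes, Rrm2, the S-phase subunit of ribonucleotide reductase, read 17342, 31112 and 15109 in J, K and L, against 12207, 24990.4 and 19168 in A, B and C. The cultures of both groups were interleaved (0.16, interval -0.47 to 0.79). Tk1, thymidine kinase (-0.18), and Rrm1 (0.28) were close. In the repair list the checkpoint kinase Chek1 (0.03), its mediator Clspn (0.28), Topbp1 (0.26) and Brca1 (-0.18) were close. Brca2 (0.66), Msh6 (0.75), Rad54l (0.54) and the nucleotide pyrophosphatase Dctpp1 (0.63) had positive changes whose intervals excluded 0 without passing the adjusted test.

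Promoters of helicase genes are shown because they carry the E2F element named above. They are the 250 bases before the RefSeq start on GRCm38.p6, 5′ to 3′ on the gene's strand: chr1:128359706-128359955, minus strand for Mcm6 and chr8:75109259-75109508, plus strand for Mcm5. Capitals mark matches to any of the E2F forms TTTCCCGC, TTTCGCGC, TTTGCCGC and TTTGGCGC on either strand, and overlapping matches on opposite strands run together.
Mcm6: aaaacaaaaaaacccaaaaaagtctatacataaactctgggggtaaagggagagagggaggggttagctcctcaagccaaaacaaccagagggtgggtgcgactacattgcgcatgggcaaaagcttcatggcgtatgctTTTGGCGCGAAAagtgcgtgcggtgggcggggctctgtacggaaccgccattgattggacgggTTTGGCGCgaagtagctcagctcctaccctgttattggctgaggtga
Mcm5: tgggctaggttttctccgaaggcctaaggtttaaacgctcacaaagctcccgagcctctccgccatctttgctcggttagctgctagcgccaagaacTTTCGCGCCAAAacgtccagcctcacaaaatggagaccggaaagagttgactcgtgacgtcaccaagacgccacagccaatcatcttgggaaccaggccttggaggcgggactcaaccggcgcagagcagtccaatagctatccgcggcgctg
The Mcm6 window holds 3 matches, with their first bases at -110, -106 and -47 from the start, of which the first 2 overlap. The Mcm5 window holds 2 overlapping matches, at -153 and -149. Among licensing genes 7 of 18 with a listed promoter held such a match (38.9%), as did 4 of 23 polymerase and fork genes (17.4%), against 3.6% of all 11492 genes with a promoter. By class over all genes the share was 3.04% among higher, 3.63% among lower and 4.17% among close genes. A match is a description of these letters and not evidence of binding.

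Many mitotic genes were lower than in dividing myoblasts, others were close or undecided, and no listed one was called higher by limma (1 and 0 of the 2 lists at an unadjusted p under 0.05). Of 18 mitotic kinases and cyclins 8 were lower and 6 close (median -0.79, and -0.83 with the block). Of 39 spindle, kinetochore and cytokinesis genes 14 were lower and 10 close (median -0.64, and -0.61 with the block). With the block 4 and 6 genes were called lower, and with 1 culture left out 6 to 9 and 7 to 12, fewest without C in both lists. Close counts were 2 and 6 with the block, 3 without L or A in the kinase list and 4 without A in the spindle list.

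Cdk1, the kinase that drives entry into mitosis, was an exception to the lower levels. It read 8857, 8849 and 8328 in J, K and L, against 9631, 11037 and 9472 in A, B and C, and 113 on average in wild-type myotubes. The 3 Rb-flox cultures lay just below the 3 myoblast cultures, and the change of -0.21 had an interval of -0.64 to 0.23, within 2-fold. Its partner cyclin B2 (Ccnb2) read 1525, 993 and 1473 in J, K and L, against 2447, 3359 and 3590 in A, B and C. It was lower, with a log2 change of -1.16 ± 0.22 (adjusted p = 0.0037), also with the block (-1.28, adjusted p = 0.0218).

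Polo-like kinase 1 (Plk1), which acts on centrosomes, kinetochores and cytokinesis, read 1040.5, 1530.3 and 1451 in J, K and L, against 3538, 4789 and 4991 in A, B and C. Every Rb-flox culture was below every myoblast culture, and the log2 change was -1.64 ± 0.23 (adjusted p = 0.000703). The spindle checkpoint kinase genes Bub1 (-1.51 ± 0.33, adjusted p = 0.00798) and Bub1b (-1.30 ± 0.25, adjusted p = 0.0038) and the kinase Melk (-1.52 ± 0.27, adjusted p = 0.00245) were lower too. Wee1, which holds Cdk1 inactive (-1.33 ± 0.25, adjusted p = 0.00391), and Cdc25c, the phosphatase that activates it (-1.56 ± 0.37, adjusted p = 0.0108), were both lower. Aurkb, the kinase of the chromosomal passenger complex, was the remaining lower gene (-0.90 ± 0.24, adjusted p = 0.0208). Nek2 (0.01), Ccnf (-0.22), Pbk (-0.29), Mastl (-0.18) and Cdc25b (-0.53) were close with Cdk1. Cdc25c (without C) and Aurkb (without J or C) lost their calls with 1 culture left out. Bub1, Bub1b, Cdc25c and Aurkb were not called under the scan day block. Cdc25c (-0.09) had the log2 changes in brackets in other probe sets, with intervals apart from that of the one used.

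Spc24, a subunit of the Ndc80 complex that holds microtubules at kinetochores, had the largest fall of the spindle list. It read 3526, 1087 and 2200.4 in J, K and L, against 10703, 12966 and 17004 in A, B and C, a change of -2.58 ± 0.38 (adjusted p = 0.000901). The 3 other subunits did not follow it alike: Nuf2 was lower (-1.09 ± 0.30, adjusted p = 0.0244), while Spc25 (-0.08, interval -0.88 to 0.72) and Ndc80 (-0.12, interval -0.88 to 0.64) were close. No test compared the subunits with each other. Nuf2 (without J, L, A or C) lost its call with 1 culture left out. Nuf2 was not called under the scan day block.

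Ect2, which sets the site of the cleavage furrow, read 537, 351 and 314 in J, K and L, against 2372, 1312 and 2579 in A, B and C. The groups did not overlap, and it was lower, with a log2 change of -2.03 ± 0.35 (adjusted p = 0.00218). Cks2 (-1.86 ± 0.27, adjusted p = 0.000804), the survivin gene Birc5 (-1.51 ± 0.22, adjusted p = 0.000885) and the centromeric histone Cenpa (-1.56 ± 0.27, adjusted p = 0.00245) were lower with any 1 culture left out. Cdc20 (-1.21 ± 0.25, adjusted p = 0.00572) and Ube2c (-0.98 ± 0.19, adjusted p = 0.00482), which direct the breakdown of mitotic proteins, were lower. The proliferation marker Mki67 read 2650.3, 2502 and 2605 in J, K and L, against 4062, 4026 and 6588 in A, B and C. Its change of -0.85 ± 0.26 (adjusted p = 0.0374) lost its call when J, K, L, A or C was left out, and that of Top2a, topoisomerase II alpha (-0.57 ± 0.17, adjusted p = 0.0361), when J, K, B or C was. Ect2, Mki67 and Top2a were not called under the scan day block. Cenpa (0.70) had the log2 changes in brackets in other probe sets, with intervals apart from that of the one used.

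Promoters of mitotic genes are shown for the CHR, whose letters are TTTGAA on either strand. Capitals mark it in the 250 bases before the start of Cdk1, which was close (chr10:69352913-69353162, minus strand), and of Ccnb2 (chr9:70421555-70421804, minus strand) and Cdc20 (chr4:118437344-118437593, minus strand), which were lower, in RefSeq sequence of GRCm38.p6.
Cdk1: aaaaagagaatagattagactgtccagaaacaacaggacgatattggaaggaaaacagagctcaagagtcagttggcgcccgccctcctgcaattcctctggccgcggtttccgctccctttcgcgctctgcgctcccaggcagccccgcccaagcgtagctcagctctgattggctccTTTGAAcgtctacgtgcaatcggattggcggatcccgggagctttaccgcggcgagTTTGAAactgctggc
Ccnb2: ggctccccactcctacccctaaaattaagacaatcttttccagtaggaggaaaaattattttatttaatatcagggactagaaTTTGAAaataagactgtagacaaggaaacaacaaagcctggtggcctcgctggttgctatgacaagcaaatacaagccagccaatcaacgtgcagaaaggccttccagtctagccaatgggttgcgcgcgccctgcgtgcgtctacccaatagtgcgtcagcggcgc
Cdc20: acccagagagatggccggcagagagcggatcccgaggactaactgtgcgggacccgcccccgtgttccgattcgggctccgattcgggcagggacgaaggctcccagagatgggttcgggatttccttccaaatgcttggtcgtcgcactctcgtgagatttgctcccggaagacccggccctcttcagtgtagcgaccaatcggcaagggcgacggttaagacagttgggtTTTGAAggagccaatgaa
The CHR letters lie at -71 and -15 in Cdk1, at -167 in Ccnb2 and at -18 in Cdc20. The Cdk1 window holds 1 E2F form as well, in lower case here, while the Ccnb2 and Cdc20 windows hold 0. A CHR match was found in 13 of 34 spindle genes (38.2%) and 3 of 13 mitotic kinases and cyclins (23.1%), against 13.3% of all genes. By class over all genes the CHR share was 12.9% among higher, 12.4% among lower and 12.8% among close genes. E2F forms occurred in 1 of 34 spindle genes. CCAAT, the letters bound by NF-Y, lay in 64.7% and 84.6% of these lists, against 39.6% of all genes. It also lay in 100% of 9 sterol synthesis genes. By class it lay in 42.4% of higher, 38.8% of lower and 39.5% of close genes.

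**Figure D3:**
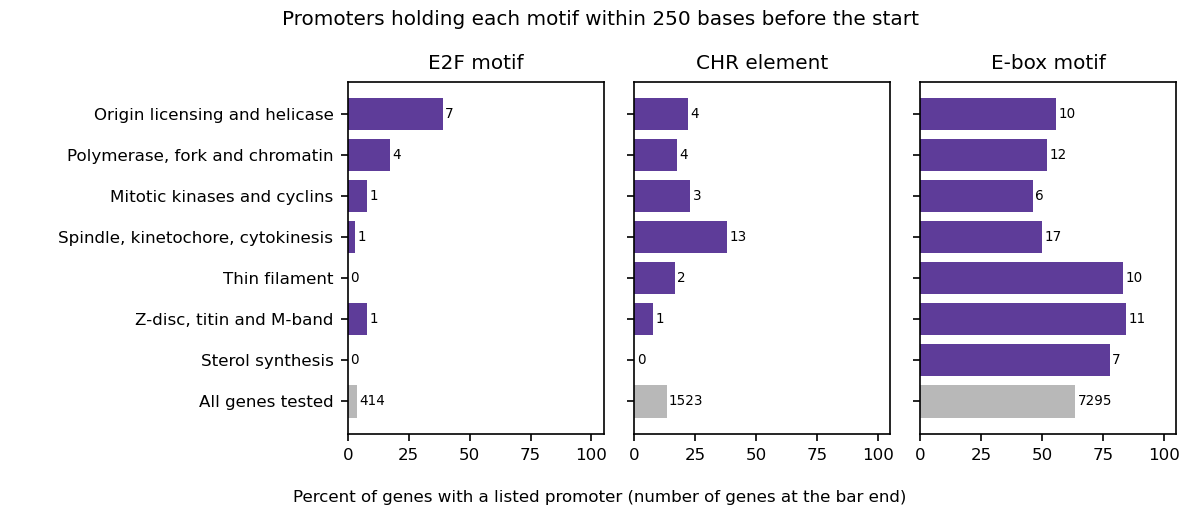
Percentage of promoters that hold an E2F, CHR or E-box match, by gene list and over all genes tested. Licensing genes have the highest E2F bar (38.9%) and spindle genes the highest CHR bar (38.2%) of the lists drawn.

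Most listed genes of the thin filament, the Z-disc, calcium release and muscle energy were higher than in the dividing precursors. Of 16 thin filament genes 11 were higher and 0 lower (median 1.92), and of 20 Z-disc, titin and M-band genes 14 and 0 (median 1.87). Of 19 calcium release and reuptake genes 13 were higher and 1 lower (median 1.88), and of 18 muscle energy genes 11 and 1 (median 1.62). Of 9 myosin light chain and binding protein genes 6 were higher, and of 6 myosin heavy chains 3. At an unadjusted limma p under 0.05, 0 thin filament and 0 Z-disc genes were lower. With the block the same lists had 6, 10, 7, 7, 2 and 3 higher members. Leaving out 1 culture gave 7 to 11, 9 to 13, 8 to 14, 7 to 11, 3 to 6 and 3 higher members, with the fewest of the first 4 lists without C and of the light chain list without J, L, A or C. Culture A had the highest signal of the 3 myoblast cultures for 16 of 20 Z-disc, 15 of 19 calcium and 14 of 18 energy genes. Over all genes this held for 3716 of 14331, so the myoblast side of these comparisons is not even.

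Trdn encodes triadin, which anchors calsequestrin to the calcium release channel. With the probe set used here it had the largest rise of all genes. It read 24169.7, 31878 and 22114 in J, K and L, against 140.1, 103 and 117 in A, B and C, where it lay near the offset. The log2 change was 6.70 ± 0.28 (adjusted p = 4.36e-08), and the 3 other Trdn probe sets gave 2.38, 2.58 and 5.27. With the mean of the probe sets Trdn had 4.23, below Ankrd23 (5.58), and without culture K it had 6.54, below H2-D1 (7.43). Casq2, a calsequestrin that stores calcium, read 52193, 33957 and 44182 in J, K and L, against 7263, 3446 and 2322 in A, B and C (3.42 ± 0.44, adjusted p = 0.000472). The release channel Ryr1 (2.73 ± 0.42, adjusted p = 0.0011), the pumps Atp2a1 (2.40 ± 0.49, adjusted p = 0.00567) and Atp2a2 (2.57 ± 0.38, adjusted p = 0.000897) and the calcium-binding Hrc (3.00 ± 0.38, adjusted p = 0.000435) were higher. Stac3, which helps to couple the voltage sensor to release, was the lower member (-0.97 ± 0.30, adjusted p = 0.0404), a call that ended without K, L, A or B. Stac3 was not called under the scan day block. Atp2a2 (0.01, 0.19 and 0.52) had the log2 changes in brackets in other probe sets, with intervals apart from that of the one used.

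The sarcoplasmic regulator Sln, sarcolipin, was not called: it read 473, 155 and 1180.2 in J, K and L, against 54.8, 30.8 and 22.3 in A, B and C (1.88 ± 0.63, adjusted p = 0.0525), while wild-type myotubes averaged 17658. The fast myosin Myh2 was not called either. It read 319, 1013 and 892 in J, K and L, against 550, 90.2 and 512 in A, B and C, with overlapping groups (0.82 ± 0.60, adjusted p = 0.353), and 32847, 37209 and 79936 in wild-type myotube cultures G, H and I. The embryonic myosin Myh3 (3.08 ± 0.58, adjusted p = 0.00379), the perinatal Myh8 (2.36 ± 0.40, adjusted p = 0.00214) and Myh1 (2.76 ± 0.55, adjusted p = 0.00471) were higher, and Myh4 (1.02) and Myh7 (1.90) were not called.

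In the thin filament, the fast troponin C gene Tnnc2 read 56584, 45752 and 52092 in J, K and L, against 8391, 2732 and 3303 in A, B and C. The groups were far apart (3.55 ± 0.46, adjusted p = 0.0005), with A the highest myoblast culture. Fast troponin I (Tnni2, 4.08 ± 0.60, adjusted p = 0.000885) and skeletal actin (Acta1, 2.25 ± 0.40, adjusted p = 0.00278) were higher, while the tropomyosins Tpm2 (0.11) and Tpm3 (0.15) were close. The M-band gene Myom2 read 20204, 13623 and 17506 in J, K and L, against 2751, 130.4 and 724 in A, B and C (4.30 ± 0.71, adjusted p = 0.00171). Ankrd23, a titin-binding ankyrin repeat protein, was higher by 5.58 ± 0.46 (adjusted p = 4.31e-05). The Z-disc genes Csrp3 (0.33), Ankrd1 (0.50) and Myoz3 (0.47) were undecided. Tpm3 (3.36 and 2.91) and Myom2 (0.45) had the log2 changes in brackets in other probe sets, with intervals apart from that of the one used.

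**Figure D4:**
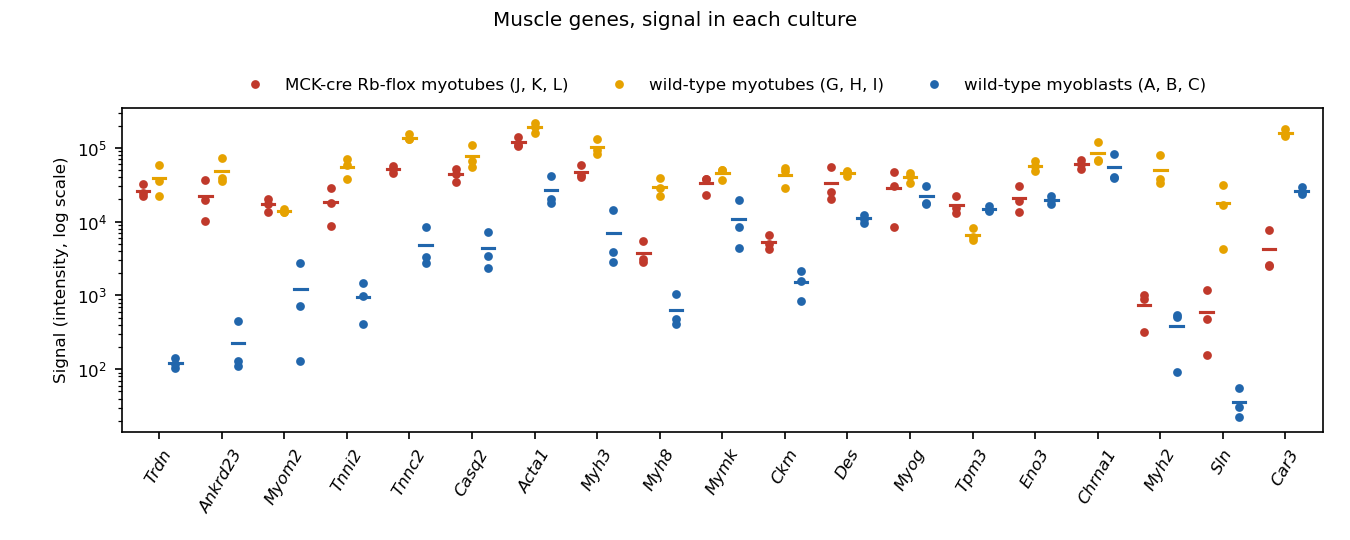
Signal of muscle genes in each culture on a log axis, with Rb-flox myotubes, wild-type myotubes and wild-type myoblasts as separate points. Trdn of the Rb-flox cultures lies among the wild-type myotubes, Tnnc2 and Sln lie between the wild-type myotubes and the myoblasts, Myh2 lies near the myoblasts, and Car3 lies below both other groups.

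The promoter of Tnnc2 is shown as an example of the E-box, CANNTG, the letters that myogenic factors read. Capitals mark its E-boxes, at -183 and -88, in the 250 bases before its RefSeq start (chr2:164779735-164779984, minus strand, GRCm38.p6).
Tnnc2: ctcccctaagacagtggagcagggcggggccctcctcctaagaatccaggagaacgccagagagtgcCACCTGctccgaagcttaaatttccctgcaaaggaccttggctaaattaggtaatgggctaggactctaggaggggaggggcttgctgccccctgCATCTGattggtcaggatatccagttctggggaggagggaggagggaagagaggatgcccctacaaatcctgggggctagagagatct
E-boxes are common: they occurred in 10 of 12 thin filament genes (83.3%) and 11 of 13 Z-disc genes (84.6%), and in 63.5% of all genes. Lists with few or no higher members varied widely. The share was 100% of 7 acetylcholine receptor and junction genes, 87.5% of 8 immediate early genes and 37.5% of 8 satellite cell and growth receptor genes. By class the share was 68% among higher, 55.9% among lower and 61.2% among close genes.

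Among energy genes, Car3, the muscle carbonic anhydrase, ran against its list. It read 7692, 2607 and 2534 in J, K and L, against 29122, 23563 and 25325 in A, B and C, with every Rb-flox culture below every myoblast culture (-2.76 ± 0.38, adjusted p = 0.000667), and 158276 on average in wild-type myotubes. Pfkm, muscle phosphofructokinase (2.38 ± 0.28, adjusted p = 0.00026), Pygm, which breaks down glycogen (2.15 ± 0.27, adjusted p = 0.000435), and the insulin-responsive glucose transporter Slc2a4 (3.03 ± 0.44, adjusted p = 0.00084) were higher. Muscle creatine kinase, Ckm, whose promoter drives the Cre, read 6607, 4897 and 4299.9 in J, K and L, against 2122, 1587 and 828 in A, B and C (1.78 ± 0.48, adjusted p = 0.0223), and 42737 on average in wild-type myotubes. Its call ended without J or C and with the block (1.63, adjusted p = 0.201). The glycolytic genes Eno3 (0.01) and Aldoa (0.16) were close. Car3 (-0.05 and -1.05) had the log2 changes in brackets in other probe sets, with intervals apart from that of the one used.

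Of 8 dystrophin complex genes 5 were higher, among them dystroglycan, Dag1 (2.56 ± 0.31, adjusted p = 0.000345), and dystrophin itself, Dmd (1.65 ± 0.36, adjusted p = 0.00749). The list had 2 higher members with the block, 1 within the last scan day and 3 to 4 with 1 culture left out, fewest without K, A or C. The acetylcholine receptor and junction list had no called member: 4 of 10 were close, among them the subunits Chrna1 (0.22), Chrnb1 (0.22) and the fetal Chrng (0.22), and Musk, the agrin co-receptor kinase, had 0.59 (interval 0.14 to 1.05). With the block 1 member was called higher, the subunit Chrnd, and 0 were close, and without L 1 was close. At an unadjusted limma p under 0.05, 2 were higher and 0 lower. Dmd was not called under the scan day block.

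The regulators of the muscle programme were mixed: of 11 myogenic regulators 2 were higher, 3 lower and 1 close. Myod1, the factor that commits cells to muscle, read 14109.8, 15682 and 20452 in J, K and L, against 38493, 49161 and 40327 in A, B and C. It was lower in every Rb-flox culture than in every myoblast culture (-1.35 ± 0.20, adjusted p = 0.000897). Des, which encodes the other purity marker, desmin, went the other way and was higher (1.455, adjusted p = 0.00978). With the scan day block Des was not called (1.64). Myf5, a further myoblast marker, was not called (-1.15, adjusted p = 0.251). Myog, which drives terminal differentiation, read 30171, 8523 and 47126 in J, K and L, against 30531, 17379 and 18084 in A, B and C. K was the lowest and L the highest of the 6 cultures, and Myog was not called (0.11 ± 0.56, adjusted p = 0.904). Mef2c, a partner of the myogenic factors, was higher by 2.62 ± 0.47 (adjusted p = 0.00291), and Mef2d by 1.17 ± 0.27 (adjusted p = 0.0106). Six4 (-1.11 ± 0.22, adjusted p = 0.00433) and the E-protein gene Tcf3 (-0.95 ± 0.20, adjusted p = 0.00727) were lower. Mef2d (without C) lost its call with 1 culture left out. Mef2d, Six4 and Tcf3 were not called under the scan day block. Myod1 (0.17) and Mef2d (-0.21) had the log2 changes in brackets in other probe sets, with intervals apart from that of the one used.

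The Id proteins, which sequester the E-protein partners of MyoD, were lower in 3 of 4 cases. Id3 read 1794, 3145 and 1680.3 in J, K and L, against 12109.7, 17594 and 15409 in A, B and C (-2.74 ± 0.30, adjusted p = 0.000193), Id1 changed by -2.20 ± 0.18 (adjusted p = 3.74e-05) and Id2 by -2.45 ± 0.41 (adjusted p = 0.00197). All 3 calls held with any 1 culture left out and with the block. Id4 was close at 0.06. The summed signal of the Id genes was 4145 to 8322 in Rb-flox, 3097 to 4897 in wild-type myotube and 24845 to 32017 in myoblast cultures. Id2 (-0.77) had the log2 changes in brackets in other probe sets, with intervals apart from that of the one used.

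Satellite cell and growth receptor genes were lower in 5 of 12 cases and higher in 1. Pax7, which marks satellite cells, read 817, 883 and 689 in J, K and L, against 2486, 1778 and 2549 in A, B and C. The groups did not overlap (-1.36 ± 0.25, adjusted p = 0.00302). Megf10, an engulfment receptor of satellite cells (-2.42 ± 0.24, adjusted p = 0.000102), the chemokine receptor Cxcr4 (-2.40 ± 0.33, adjusted p = 0.000708), Met, the receptor of hepatocyte growth factor (-1.33 ± 0.30, adjusted p = 0.00954), and the proteoglycan Sdc3 (-1.42 ± 0.19, adjusted p = 0.000522) were lower. Spry1, which restrains growth factor signals, was higher (1.16 ± 0.29, adjusted p = 0.0164), and the FGF receptors Fgfr1 (-0.32) and Fgfr4 (-0.05) were close. Of 12 Notch pathway genes 4 were lower and 6 close. The lower ones were the target Hes1 (-1.71 ± 0.22, adjusted p = 0.0005), the ligand Dll1 (-1.03 ± 0.19, adjusted p = 0.00342) and the receptor Notch2 (-0.82 ± 0.25, adjusted p = 0.0359). Hes6, a gene of the same family as Hes1, was lower too (-1.29 ± 0.25, adjusted p = 0.00413). Spry1 (without L or C) and Notch2 (without J, K, L, A or C) lost their calls with 1 culture left out. Pax7, Met, Spry1, Dll1 and Notch2 were not called under the scan day block. Pax7 (-4.34), Met (-3.01), Sdc3 (-0.08) and Notch2 (0.68) had the log2 changes in brackets in other probe sets, with intervals apart from that of the one used.

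Of 15 fusion and adhesion genes 7 were higher and 2 lower, and 4 and 2 with the block. Mymk, the membrane protein that fuses myoblasts, was higher by 1.82 ± 0.50 (adjusted p = 0.0244), a call that ended without J, L, B or C. The membrane repair gene Dysf (1.86 ± 0.40, adjusted p = 0.00745) and caveolin 3, Cav3 (1.69 ± 0.38, adjusted p = 0.0088), were higher. M-cadherin, Cdh15, read 2118, 3205 and 4011 in J, K and L, against 7964, 6836 and 8458 in A, B and C, and was lower, with a log2 change of -1.32 ± 0.20 (adjusted p = 0.00112). Vcam1 was the other lower gene (-1.67 ± 0.29, adjusted p = 0.00238). Cav3 was not called under the scan day block.

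Ribosome biogenesis genes were lower in 11 of 17 cases, close in 4 and higher in 0 (median -0.80, and -0.82 with the block, where 7 were lower). Npm1, nucleophosmin, read 7185, 13176 and 10369 in J, K and L, against 22843, 34781 and 26528 in A, B and C. The groups did not overlap (-1.46 ± 0.24, adjusted p = 0.00176). Dkc1, which modifies ribosomal RNA (-1.56 ± 0.19, adjusted p = 0.000347), Rrs1 (-1.68 ± 0.21, adjusted p = 0.000434), which acts in assembly of the large subunit, and the methyltransferase Fbl (-1.24 ± 0.20, adjusted p = 0.00171) were lower. Bop1 (0.05) and Gnl3 (0.17) were close. At an unadjusted limma p under 0.05 12 were lower and 0 higher. Leaving out 1 culture gave 6 to 9 lower genes, fewest without C. The summed signal of the list was 53231 to 59811 in Rb-flox, 42552 to 53194 in wild-type myotube and 101902 to 125121 in myoblast cultures. Bop1 (-1.12) had the log2 changes in brackets in other probe sets, with intervals apart from that of the one used.

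Mitochondrial respiration genes were mostly near the precursor level, with 20 of 25 close, 3 lower and 0 higher (median -0.08, and 1 higher at an unadjusted limma p under 0.05). The lower ones were the complex I gene Ndufb5 (-0.88 ± 0.17, adjusted p = 0.00427) and the succinate dehydrogenase subunits Sdhc (-1.02 ± 0.18, adjusted p = 0.00235) and Sdhd (-0.64 ± 0.19, adjusted p = 0.0323). The other 2 subunits of that enzyme, Sdha (-0.03) and Sdhb (-0.09), were close. The muscle forms of cytochrome c oxidase, counted with the energy genes, were higher: Cox6a2 by 2.88 ± 0.64 (adjusted p = 0.00823) and Cox8b by 2.26 ± 0.36 (adjusted p = 0.00143). Sdhd (without J, L, A or C) lost its call with 1 culture left out. Sdhd and Cox6a2 were not called under the scan day block.

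Of 12 sterol synthesis genes 9 were higher and 0 lower by limma, 0 also at an unadjusted p under 0.05 (median 1.45, and 1.17 with the block, where 4 were higher). Fdps, farnesyl diphosphate synthase, read 8719.9, 15356 and 5126 in J, K and L, against 1485, 2021 and 1928 in A, B and C. All 3 Rb-flox cultures were above all myoblasts, K the most (2.22 ± 0.36, adjusted p = 0.00165). Cyp51, which demethylates lanosterol (2.23 ± 0.28, adjusted p = 0.000431), Idi1 (2.13 ± 0.45, adjusted p = 0.00685) and Hmgcs1, which makes the precursor of mevalonate (1.69 ± 0.31, adjusted p = 0.00299), were higher. Culture K had the highest signal of the Rb-flox cultures for 11 of the 12 genes, against 5539 of all 14331 genes. Culture B was the highest myoblast culture for 10 of the 12, against 6827 of all genes. The summed signal of the list was 25764 to 58941 in Rb-flox, 37082 to 44978 in wild-type myotube and 9977 to 16359 in myoblast cultures. The serum differed between the groups (5% horse serum against 20% fetal bovine serum), and its part was not tested. Idi1 was not called under the scan day block.

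MHC class I and interferon genes were higher in 10 of 16 cases and lower in 0 by limma, 0 also at an unadjusted p under 0.05 (median 1.59, and 1.85 with the block, where 5 were higher). The rise was uneven among the Rb-flox cultures. H2-D1, a class I heavy chain, read 28025, 468 and 42013 in J, K and L, against 61.9, 99.1 and 49.3 in A, B and C. All 3 lay above every myoblast culture, but K was far below J and L (5.48 ± 1.29, adjusted p = 0.0111). The probe sets used for H2-D1 and for H2-K1 are of a kind that can cross-hybridise with related class I genes. Without the filter on low signal, where another H2-D1 probe set is used, the change was 3.25. H2-D1 was not called under the scan day block.

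B2m, the class I light chain, read 64430.5, 19697 and 60338 in J, K and L, against 9488, 7776 and 7947 in A, B and C (2.33 ± 0.41, adjusted p = 0.00256). Ifit1, induced by interferon, read 4090.2, 982 and 4589 in J, K and L, against 333, 443 and 286 in A, B and C (2.55 ± 0.49, adjusted p = 0.00404). K was the lowest Rb-flox culture for both, and for 15 of the 16 genes of the list, against 5333 of all 14331 genes. H2-K1 (3.50 ± 0.72, adjusted p = 0.0057), the peptide loader Tapbp (1.92 ± 0.32, adjusted p = 0.0019) and the interferon factors Irf7 (1.90 ± 0.35, adjusted p = 0.00299) and Stat2 (1.55 ± 0.31, adjusted p = 0.00536) were higher, while the proteasome gene Psmb10 (-0.11) and the transporter Tap2 (0.22) were close. Without 1 culture 8 to 10 genes were called higher. Wild-type myotubes averaged 103 for H2-D1 and 6145 for B2m. Ifit1 and Irf7 were not called under the scan day block.

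**Figure D5:**
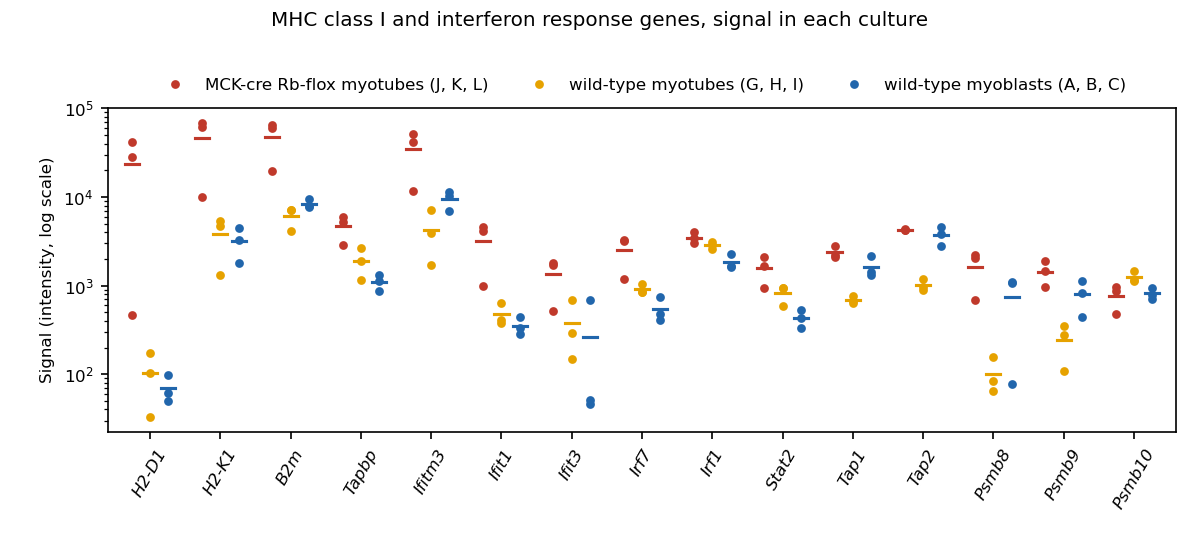
Signal of MHC class I and interferon genes in each culture on a log axis, with Rb-flox myotubes, wild-type myotubes and wild-type myoblasts as separate points. Cultures J and L lie highest for H2-D1 and B2m, and culture K lies between them and the myoblasts.

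Markers of other cell types were read beside these lists. The summed signals of these markers are no measure of how many cells of a type were present. Of 10 fibroblast markers 5 passed the filter on low signal and limma called 0 (1 higher at an unadjusted p under 0.05), with a summed signal of 9622 to 23488 in Rb-flox cultures and 19225 to 21639 in myoblast cultures, and Pdgfrb, Lum, Fap and Dpt failed the filter. Of 9 macrophage markers 5 passed and 2 were higher, Cd68 (1.12 ± 0.28, adjusted p = 0.0159) and Csf1r (1.02 ± 0.27, adjusted p = 0.0211), while Ptprc, Itgam, Tyrobp and Aif1 failed it. The summed macrophage signal was 4587 to 5726 in Rb-flox cultures and 2127 to 4100 in myoblast cultures. Its part in the MHC result was not tested. Cd68 (without J, K, A or C) and Csf1r (without L, A or C) lost their calls with 1 culture left out. Cd68 and Csf1r were not called under the scan day block.

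Of 7 endothelial markers 2 passed the filter and limma called 0, also at an unadjusted p under 0.05 (summed signal 948 to 1529.5 in Rb-flox and 559 to 2154 in myoblast cultures), and Pecam1, Tek, Tie1, Emcn and Vwf failed it. Of 9 adipocyte markers 4 passed, and lipoprotein lipase, Lpl, was higher (2.11 ± 0.36, adjusted p = 0.00195) while Adipoq, Pparg and Lep failed the filter. Their summed signal was 9672 to 15994 in Rb-flox and 2792 to 4499.9 in myoblast cultures. Of 5 smooth muscle markers 3 passed and limma called 0, with 1 higher at an unadjusted p under 0.05 (summed signal 3833 to 8751 in Rb-flox and 3086 to 3765 in myoblast cultures), with Myh11 and Cnn1 below the filter. Of 6 Schwann and neural markers 2 passed and Gfap was higher (1.16 ± 0.34, adjusted p = 0.0299), with S100b and Ngfr below the filter (summed signal 1255 to 2009 in Rb-flox and 762 to 1601 in myoblast cultures). Gfap (without K, L, A or B) lost its call with 1 culture left out. Gfap was not called under the scan day block.

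Collagen and matrix genes were not shifted as a list, with 1 of 15 higher, 3 lower and 3 close, or 1 close without K (median -0.06). The basement membrane collagens Col4a1 and Col4a2 were lower. Col4a1 read 801, 3784 and 1294 in J, K and L, against 11753, 14861 and 19392 in A, B and C (-3.13 ± 0.41, adjusted p = 0.000516), and Col4a2 changed by -2.40 ± 0.31 (adjusted p = 0.0005). Tenascin C, Tnc, was lower, with a log2 change of -3.07 ± 0.58 (adjusted p = 0.0037). Lox, which cross-links collagen, was higher by 1.63 ± 0.37 (adjusted p = 0.01), a call that ended with the block (0.77, adjusted p = 0.314). Tnc was not called under the scan day block.

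With the probe set used here, the largest fall of all genes was that of Hmga2, a chromatin protein of embryonic and proliferating cells. It read 414, 209.6 and 143 in J, K and L, against 19038, 10678 and 16297 in A, B and C (-5.35 ± 0.32, adjusted p = 2.61e-06), and 233 on average in wild-type myotubes. Of its 4 probe sets, 1 on MOE430B gave -0.07, so the probe sets disagreed, and their mean gave -4.05, a smaller fall than that of Mest (-4.23). The imprinted gene Mest read 1259, 2253 and 1426 in J, K and L, against 21014, 35951 and 44126 in A, B and C (-4.23 ± 0.30, adjusted p = 1.33e-05), and 631 on average in wild-type myotubes. Igfbp3, which binds insulin-like growth factors (-4.13 ± 0.57, adjusted p = 0.000667), and Cthrc1, a secreted collagen triple helix protein (-3.94 ± 0.46, adjusted p = 0.00026), followed. In wild-type myotubes Igfbp3 and Cthrc1 averaged 1182 and 1966, against 119 and 1478 in Rb-flox myotubes and 4474 and 25829 in myoblasts. Dynap, Dusp4, Arhgap22, Rgs5, Ackr3, Glipr2, Tafa5 and Rps6ka6 completed the 12 largest falls, with log2 changes of -3.88 to -3.20. Of these 8, Dusp4 (-3.01, adjusted p = 0.05001) and Rgs5 (-3.09, adjusted p = 0.0536) were not called under the scan day block. The Dusp4 call also ended with the fluidics protocol as a block (-2.46, adjusted p = 0.0582). Another Tafa5 probe set gave -1.09.

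Outside the lists, the largest rises were Lmcd1 (3.94 ± 0.45, adjusted p = 0.000225), a LIM protein of striated muscle, Pltp, which transfers phospholipids between lipoproteins (3.79 ± 0.49, adjusted p = 0.0005), the keratin Krt80 (3.75 ± 0.43, adjusted p = 0.000225), the protease inhibitor Serpinb1a (3.48 ± 0.42, adjusted p = 0.000334) and the transcriptional repressor Bhlhe40 (3.46 ± 0.52, adjusted p = 0.00102). Lmcd1 read 1913, 3175 and 3408 in J, K and L, against 42.2, 101 and 35.8 in A, B and C, and Krt80 read 7359.6, 13350.4 and 4639.8 in J, K and L, against 394, 738 and 305 in A, B and C. The largest rises and falls were chosen from genes whose groups do not overlap, so the lack of overlap in these genes carries no added weight.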

How the data were processed

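RNA of 12 mouse primary muscle cell cultures was measured on MOE430A and MOE430B arrays. Each value in the deposited tables is the linear intensity of a probe set on an array. They were made by the authors with MAS5, per the submitters' processing notes, which give no version. After removal of the lowest and highest 2% of probe sets every array has a mean of 1500. Array annotation placed 20380 of 22690 MOE430A and 14661 of 22575 MOE430B probe sets in 1 gene; 691 and 245 had several, and 1555 and 7605 had none. Names were updated through RefSeq on GRCm38.p6. The genome build behind the authors' values is not given in the sources used here.

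From the authors' deposited intensities, log2(signal + offset) was taken, the offset being the 20th percentile of all values of a chip type. Probe sets above the 40th percentile of their own array on at least 3 of 12 arrays were kept. For each gene 1 of the kept probe sets was used. One without the suffix _x_at or _s_at was taken first if present, then one on MOE430A if present, and among these the brightest on average. This gave 14331 genes, 9143 from MOE430A and 5188 from MOE430B. All 12 cultures, as 4 groups, entered a limma fit (version 3.58.1, R 4.3.3; lmFit and eBayes with trend = TRUE), and Benjamini-Hochberg adjustment ran over all genes. Array quality was compared with exact 2-sided permutation tests. The fit was tested on simulated data. Python 3.11.15 with numpy 2.4.6, pandas 2.3.3, scipy 1.17.1 and matplotlib 3.10.9 was used for the rest. The number of arrays limits the precision.

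Members and gene lists (538 distinct genes in 37 lists, 475 tested, 37 below the filter and 26 not analysed here) were chosen with earlier results of these data known. Named genes were the 12 largest rises and falls among called genes whose groups do not overlap, a panel, for each list up to 2 called members from each end and up to 3 close members with the smallest change, and all tested members of the lists of other cell types, 221 genes in all. The counts of named genes below cover these 221, of which not all are printed here. Other genes printed to complete a count or a complex were chosen after their values were seen and are not among the 221. Replicates are separate cultures. No culture letter occurs in both groups, so no pairing was used. Alternatives changed the arrays fitted, scan day, normalisation, offset, filter, probe set choice, chip types, array weights, interval width and replicates. The fluidics block and the last scan day alone were added after seeing the data.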

Additional observations from a re-analysis of the deposited data

How the results depend on the processing

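No paired analysis was possible because no culture letter occurs in both groups. With scan day as a block 555 genes were higher and 390 lower, and within the last scan day alone, where culture B stands alone and is assumed to vary like the other groups, 226 were higher, 97 lower and 2809 close. A fit of only the 6 cultures compared gave 927 higher, 947 lower and 5275 close genes. Array weights gave 2849 higher and 2059 lower. A 1.5-fold interval left 1104 close genes. Leaving out 1 culture gave 715 (without C) to 1892 (without B) higher, 676 (without C) to 1419 (without B) lower, and 4648 to 5434 close genes. No named gene that was called changed sign under any setting run. Cdh5, not called at -0.01, was called higher without the filter (1.03, adjusted p = 0.0147), where another probe set is used.

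Of the 128 named genes that were called, 74 kept their call with scan day as a block, 44 within the last scan day, 113 with the fluidics protocol as a block and 128 with a separate fit per chip type. Of the 67 named close genes 34, 22, 59 and 67 stayed close under the same settings. In the fit of only the 6 cultures compared, 110 of the called and 58 of the close genes kept their class. Cdk2, E2f6, Bcl2l11, Cd68 and Egr1 were among those that lost their call there. The median log2 change of all genes was 0.16, and 0.02 after median centring, which gave 987 higher and 1661 lower genes, so that 37.3% of calls were higher in place of 51.4%. That share was 60.9% with the fluidics block, 58.7% with the scan day block and 70.0% within the last day. The cause was not tested. Signals near the offset limit the low genes: an offset at the 5th percentile left 4668 close genes.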

Other observations

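Other lists were described in the same way. Of 12 p53 target and apoptosis genes 4 were higher and 0 lower (median 0.76, with 7 higher and 0 lower at an unadjusted limma p under 0.05). Pmaip1, which encodes the BH3 protein Noxa, read 4700, 5729.8 and 2288 in J, K and L, against 1125, 489 and 1163 in A, B and C, and was higher (2.03 ± 0.43, adjusted p = 0.00702). Bbc3, the BH3 protein Puma (0.98 ± 0.25, adjusted p = 0.0159), Bcl2l11, Bim (0.80 ± 0.22, adjusted p = 0.0238), and Mdm2, which degrades p53 (0.93 ± 0.28, adjusted p = 0.0356), were the other higher genes. With the block 1 of the 12 was higher, and without culture C 1 was, against 4 in the pooled fit. Bbc3 (without K or C), Bcl2l11 (without L, A, B or C) and Mdm2 (without J, K, A or C) lost their calls with 1 culture left out. Bbc3, Bcl2l11 and Mdm2 were not called under the scan day block.

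In the growth factor axis Igf2, a growth factor of differentiating muscle, read 69107, 39780.1 and 53118 in J, K and L, against 26607, 9547 and 21026 in A, B and C, with the groups apart (1.58 ± 0.37, adjusted p = 0.0104). Its receptor Igf2r was higher (0.98 ± 0.23, adjusted p = 0.0118) and Igf1r was close (0.04). Of 12 immediate early genes 3 were lower and 1 higher. Fosl1 read 1006, 1257 and 725 in J, K and L, against 4706, 4607 and 4416 in A, B and C (-2.09 ± 0.22, adjusted p = 0.000175), and Jun (-1.14 ± 0.24, adjusted p = 0.00623) and Egr1 (-1.23 ± 0.40, adjusted p = 0.048) were lower, while Atf3, a stress-induced factor, was higher (1.92 ± 0.38, adjusted p = 0.00486). Of 13 autophagy and atrophy genes 1 was higher, Map1lc3a (1.71 ± 0.28, adjusted p = 0.00179), and 7 were close, or 4 without J or B. Igf2r (without C) and Egr1 (without J, K, A or C) lost their calls with 1 culture left out. Igf2r, Jun and Egr1 were not called under the scan day block. Igf1r (-0.95) and Map1lc3a (0.42) had the log2 changes in brackets in other probe sets, with intervals apart from that of the one used.

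Bst2, an interferon-induced membrane protein that failed the filter, read 5888, 46.6 and 4057 in J, K and L, against 71.3, 97.8 and 91.6 in A, B and C.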
